A study of Mus musculus with 2 samples.

Results

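The genes described here are 40 genes of the unfolded protein response and the heat shock response, taken by gene symbol with no threshold on their values. All 40 were found among the 24081 gene symbols of the table and all 40 were among the 10899 genes with a mean of at least 20 reads over both libraries, called expressed here. By role, 24 act in or for the endoplasmic reticulum (ER) and 16 are heat shock factors and chaperones of the cytosol and mitochondria.

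The values come from RNA-seq of regulatory T (Treg) cells, the CD4+ cells that depend on Foxp3 and restrain other lymphocytes, which were sorted as CD4+ YFP+ from spleen and lymph nodes of C57BL/6 mice aged 5 weeks. All mice carried the Foxp3cre/wt genotype, so that Cre recombinase was expressed from the Foxp3 locus. The WT library came from mice with 1 floxed and 1 wild-type allele (fl/wt) of a gene of the SUMO conjugation pathway, and the KO library from mice with both alleles floxed (fl/fl). Each library pooled the cells of 5 to 10 mice. Because a group is a single library, the spread between mice is unknown and differences are given without p-values. A genotype field that says wild type for both was set aside, and the directions below rest on the sample titles. All 8 T and Treg cell markers checked were present in each library, with at least 1438 reads in WT and 2056 in KO. Of these Foxp3 (8540 and 30579 reads) was 1.85-fold higher in KO, Ctla4 (1712 and 2056) and Ikzf2 (3859 and 4706) were 1.61-fold and 1.59-fold lower, and the other 5 differed by less than 1.5-fold. In bulk RNA, fewer cells of a kind and less RNA per cell cannot be told apart.

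The unfolded protein response adjusts the folding capacity of the ER to its load. Its sensors in the ER membrane are IRE1 (Ern1), which splices the mRNA of Xbp1, PERK (Eif2ak3), which phosphorylates eIF2alpha and so favours translation of Atf4, and ATF6, which is cleaved to release a transcription factor. The heat shock response is the counterpart for the cytosol, where Hsf1 drives genes of the HSP70 and HSP90 families when unfolded proteins accumulate. T cells use both when they are activated and secrete cytokines, and Xbp1 is best known in lymphocytes for the secretory programme of plasma cells.

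ER chaperone genes share a promoter element, the ER stress response element, which ATF6 and XBP1 recognise together with the factor NF-Y. It was searched as CCAAT and CCACG with 9 bases of any kind between them, on either strand, in the 250 bases before each transcription start in RefSeq promoters of mouse build GRCm38.p6, where 33 of the 40 genes matched. It was present in 8 of these 33 genes, all 8 of them ER genes, against 0.113% of 32851 promoters of all genes and 13 of 8386 expressed genes with a promoter in the table. The other 2 elements of the unfolded protein response were rare or absent in these windows: TGACGTGG, a site for XBP1 and ATF6, was found on neither strand of the 33 windows (0.563% of all promoters), and TGATGNAA, a site for ATF4, in 1, Herpud1 (3.45% of all promoters). A match of letters is a description and no evidence of binding in these cells. The sites of the 6 genes with the element that had the most reads over both libraries are shown in the direction of each gene, with the element in capitals. Where it lies on the opposite strand it reads CGTGG first and ATTGG last. The sites are at chr8:84847070-84847098 (Calr), chr2:34772020-34772048 (Hspa5), chr10:86705633-86705661 and chr10:86705528-86705556 (Hsp90b1), chr11:50325795-50325823 (Canx), chr14:118937822-118937850 (Dnajc3) and chr19:6046527-6046555 (Syvn1), and Calr, Hsp90b1 and Canx lie on the minus strand.

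Calr: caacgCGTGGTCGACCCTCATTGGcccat
Hspa5: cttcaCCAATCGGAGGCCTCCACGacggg
Hsp90b1, far site: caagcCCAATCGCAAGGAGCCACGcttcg
Hsp90b1, near site: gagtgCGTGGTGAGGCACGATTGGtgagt
Canx: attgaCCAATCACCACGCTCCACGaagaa
Dnajc3: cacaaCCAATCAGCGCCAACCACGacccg
Syvn1: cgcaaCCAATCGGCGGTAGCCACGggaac

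Of the 8 genes with the element, 6 (Calr, Hspa5, Hsp90b1, Canx, Dnajc3 and Pdia6) had ratios below 0, from 1.12-fold lower (Calr) to 1.31-fold lower (Dnajc3). The other 2, the ubiquitin ligase gene Syvn1 and the ER stress gene Creld2, were 1.16-fold and 1.09-fold higher. The median log2 ratio of KO over WT was -0.23 for the 8 genes with the element and -0.10 for the 25 matched genes without it. GC-corrected, these medians were -0.10 and -0.06. Over all 13 expressed genes with the element, these 8 included, 7 log2 ratios were below 0 and 6 above. Their median was -0.16 (-0.09 GC-corrected), but most of the 13 are these 8. Most of the others with the element lay above 0, and the highest log2 ratio of the 13 was 0.82, against 0.21 among the 8. This is a description with no test.

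Reads assigned to genes numbered 11662867 (WT) and 23789264 (KO). Folds are ratios of CPM, reads of a gene per 1e6 reads of its library after TMM scaling, with exact 95% intervals that cover counting error only and no spread between mice. Log2 ratios add a pseudocount of 1 to the scaled counts. The words called higher and called lower mean that this log2 ratio passed 1.5-fold. Across expressed genes the log2 ratio tracked transcript GC content (Spearman 0.41 over 10467 genes, which are not independent), with a median log2 ratio of -0.16 in the lowest and 0.36 in the highest of 10 equal bins by GC content. A smooth trend on GC content and transcript length was therefore removed as an alternative, called GC-corrected below. Raw reads below are given as WT then KO, and must be read against these totals.

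Most of the 40 genes differed little between the libraries, and the chaperones leaned toward lower levels in the KO library. Of the 40 genes 1 was called higher, Ppp1r15a, and 1 lower, Bag3, where 7.43% and 5.51% of expressed genes were called. A log2 ratio below 0 was seen for 26 of 40, against 48.6% of expressed genes, and the median was -0.18 against 0.01 for all expressed genes. With the GC-corrected ratios 28 of 40 were below 0, against 48.4% of expressed genes, and the median was -0.10. The 95% counting interval lay wholly below no difference for 21 genes and wholly above it for 12, where 25.6% and 29.1% of expressed genes did so. Intervals are narrower for genes with more reads, and these genes were read deeply. Of the 27 genes with a mean of at least 1000 reads, 77.8% were below 0 on the log2 scale, against 44.3% of 3824 expressed genes read as deeply.

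**Figure D1:**
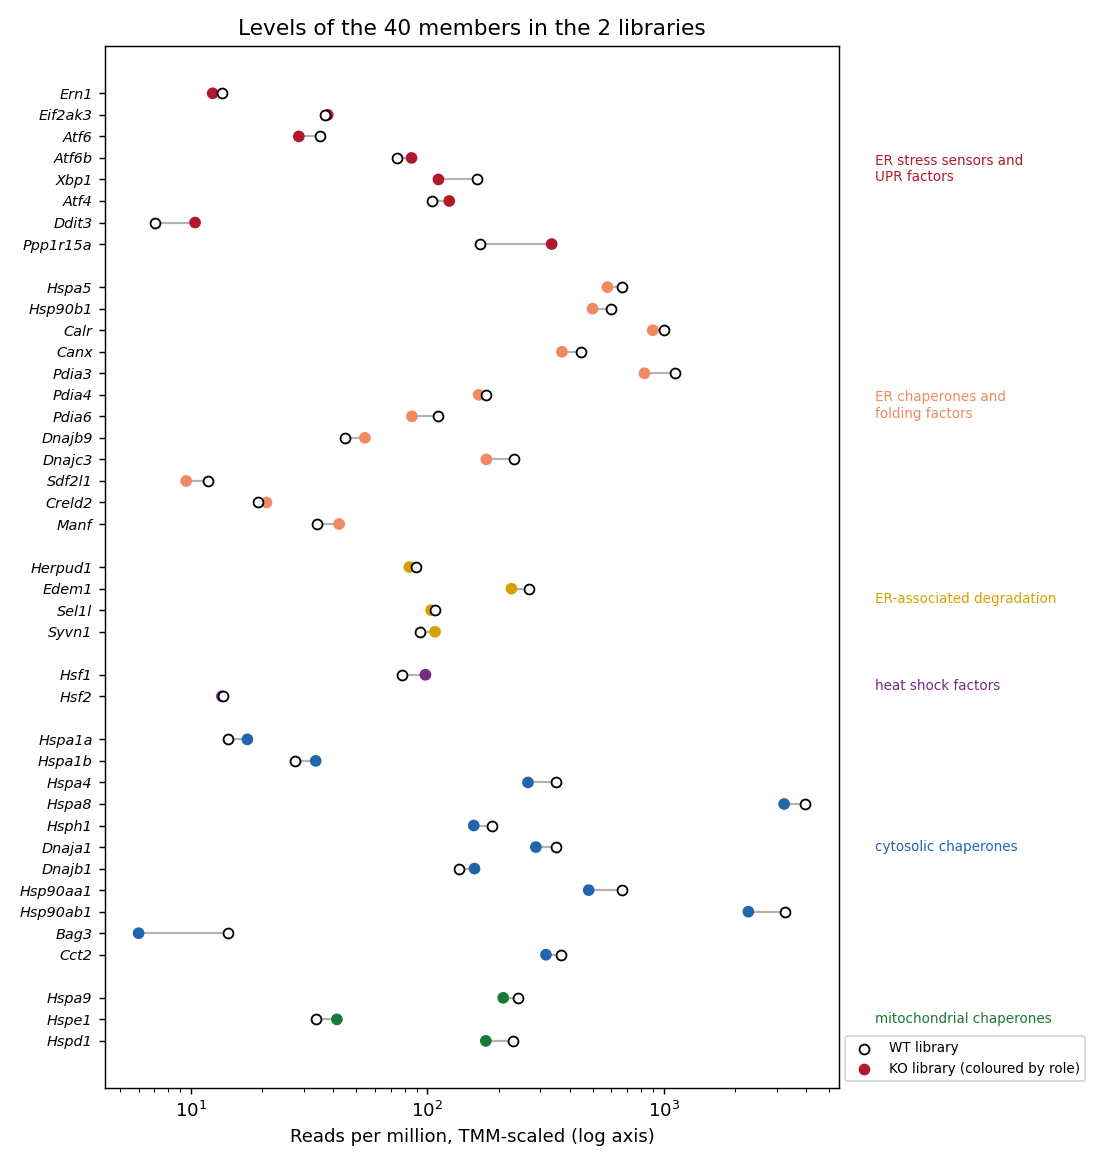
TMM-scaled CPM (log axis) of each of the 40 genes in the WT library (open circles) and the KO library (filled circles, coloured by role), 1 library per group. Ppp1r15a moves furthest to the right, from 167 to 335, and Bag3 furthest to the left, from 14.4 to 6.00.

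Of the ER sensor genes, Ern1 and Eif2ak3 were near even between the libraries, Atf6 was lower and Atf6b higher as scaled. Ern1 had 162 reads in WT and 286 in KO, 13.5 and 12.3 CPM, a ratio that counting error covers (1.10-fold lower, 0.898 to 1.33). Eif2ak3 had 440 and 877 reads, also within its interval (1.03-fold higher, 0.918 to 1.16). Atf6 was 1.23-fold lower (421 and 662 reads, 1.09 to 1.39). Its paralog Atf6b, a weaker activator of the same targets, was 1.15-fold higher (893 and 1984 reads, 1.06 to 1.24). Atf6b has a GC content of 61.6%, and its GC-corrected log2 ratio was -0.21, the same as that of Atf6, so the opposite signs of the pair depend on the correction. Per length, Ern1 was at 1.65 and 1.51 RPKM, CPM per kilobase of exon, Atf6 at 3.81 and 3.10, Eif2ak3 at 6.10 and 6.28 and Atf6b at 27.0 and 31.1.

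Downstream of the sensors, Xbp1 was lower and the PERK-side genes were higher. Xbp1, the factor activated by IRE1, had 1947 and 2579 reads (163 and 111 CPM), 1.46-fold lower (1.38 to 1.55). Its log2 ratio of -0.55 was just inside the threshold of 1.5-fold and stood at -0.51 when GC-corrected. The counts cover all isoforms, so the spliced, active form of Xbp1 was not measured. On the PERK side all 3 downstream genes, Atf4, Ddit3 and Ppp1r15a, had intervals above no difference. The transcription factor Atf4, which is regulated mainly in translation, was 1.18-fold higher (1253 and 2865 reads, 1.11 to 1.26). Its target Ddit3, which encodes the pro-apoptotic factor CHOP, was 1.48-fold higher (84 and 241 reads, 1.15 to 1.93), just inside the threshold, and few reads make its interval wide.

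Ppp1r15a was the gene of the 40 with the highest ratio. It encodes GADD34, the phosphatase subunit that reverses the phosphorylation of eIF2alpha and restores translation. It lies at chr7:45522916-45526268 on the minus strand of GRCm38 (ENSMUSG00000040435.12) and had 2006 reads in WT and 7770 in KO, or 167 and 335 CPM. This is 2.0-fold higher (1.91 to 2.10). It ranked 173 from the top of 10899 expressed genes, and its GC-corrected log2 ratio was 0.90 against 1.00 as scaled. Relative to Atf4 reads in the same library, Ppp1r15a went from 1.60 to 2.71, 1.69-fold (1.56 to 1.84, a Wald interval for counting error), and relative to Hspa5 2.31-fold (2.18 to 2.44). These ratios within a library need no scaling but are not GC-corrected, and the pairs were chosen after the values were seen. The GC-corrected log2 ratios of Atf4 and Hspa5 were 0.13 and -0.10, against 0.24 and -0.20 as scaled.

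Ppp1r15a is also an immediate early gene, induced within minutes of stimulation. In a list of 18 immediate early genes 17 were expressed, of which 8 were called higher and none lower. Among all expressed genes 7.43% were called higher and 5.51% lower. The list had a median log2 ratio of 0.57 (0.33 GC-corrected, with 5 called higher, against 4.80% of expressed genes). Log2 ratios of the 17 ran from -0.38 to 0.95, with 14 above 0 and 3 below. Among those called higher, Fos had 1994 and 7024 reads (1.82-fold higher) and Nr4a1 1909 and 7049 (1.91-fold higher), ratios close to that of Ppp1r15a. Whether these genes and Ppp1r15a differ for the same reason was not tested.

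The wider PERK and ATF4 pathway was split evenly as scaled and leaned lower when GC-corrected. Of 24 other genes of this pathway 20 were expressed: 1 was called higher, 2 were called lower and 17 lay between, with 10 log2 ratios on each side of 0 and a median of 0.01. GC-corrected, 6 were above 0 and 14 below, with a median of -0.16. Counting intervals lay wholly below no difference for 7 of the 20 and wholly above it for 2. The calls rested on few reads: the stress factor Atf3, called higher and also among the 8 immediate early genes above, had 10 and 33. The asparagine synthetase Asns (21 and 19) and the aminotransferase Gpt2 (29 and 33) were called lower. The ATF4 target Chac1 was listed at 0 in both libraries. Among 9 expressed genes of the ATF6 pathway and its relatives, Creb3l1 was called higher (15 and 67 reads) and the others lay between.

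**Figure D2:**
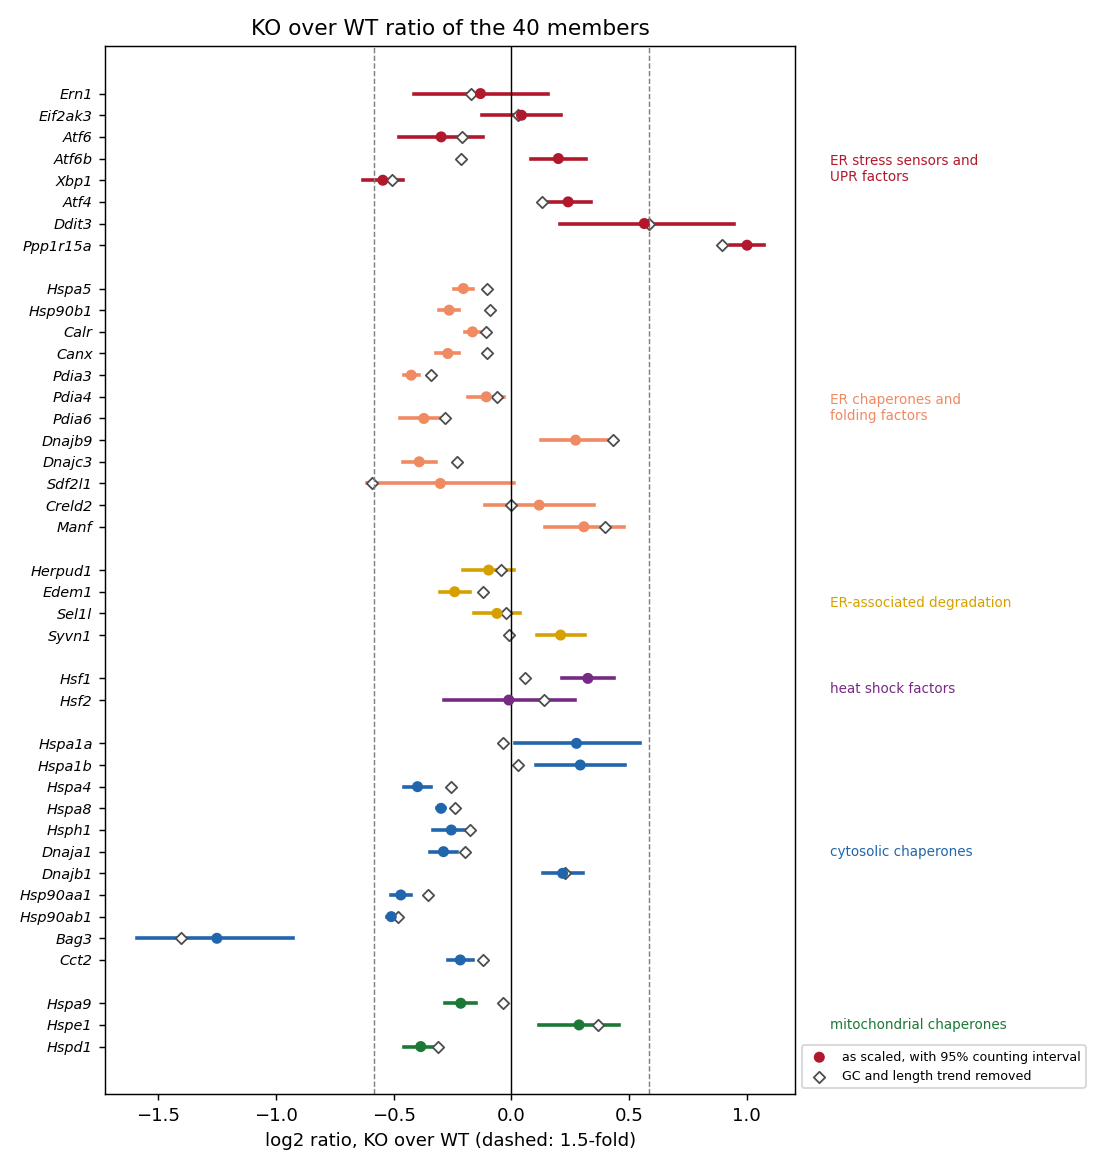
Log2 ratio of KO over WT for the 40 genes by role (filled circles, as scaled, with 95% counting intervals as bars), and after removal of the trend on GC content and length (open diamonds), with dashed lines at 1.5-fold. Among the scaled ratios, Ppp1r15a at 1.00 and Bag3 at -1.25 lie outside the dashed lines, and 26 of 40 lie below 0.

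The abundant ER chaperones were lower in the KO library by small amounts. Of 12 ER chaperones and folding factors 9 had a log2 ratio below 0 and 3 above it, none was called, and the median was -0.23 (-0.10 GC-corrected, again 9 and 3). Calnexin (Canx) and calreticulin (Calr) are lectins that hold glycoproteins for the disulphide isomerase Pdia3, and Pdia3 and Calr had the highest levels per length of the ER genes. Pdia3 had 13316 and 19179 reads, or 354 and 264 RPKM, 1.34-fold lower (1.31 to 1.37). Calr had 12051 and 20791 reads (349 and 312 RPKM, 1.12-fold lower, 1.10 to 1.15), and the membrane-bound Canx 5350 and 8582 (95.2 and 79.0 RPKM, 1.21-fold lower). Thus Pdia3 and Calr were level in the WT library, and Pdia3 was the lower of them in the KO library.

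Hspa5, which encodes BiP, the ER HSP70 that keeps the sensors inactive, had 7956 and 13360 reads (664 and 577 CPM). It was 1.15-fold lower (1.12 to 1.18). The ER HSP90 gene Hsp90b1 had 7186 and 11573 reads and was 1.2-fold lower (1.17 to 1.24). Of 2 other disulphide isomerases Pdia6 was 1.29-fold lower (1332 and 1991 reads) and Pdia4 1.08-fold lower (2124 and 3816 reads). The BiP co-chaperone Dnajc3, which also inhibits eIF2alpha kinases, was 1.31-fold lower (2788 and 4111 reads, 1.25 to 1.38). GC content of Hsp90b1, Canx and Dnajc3 was 42.7% to 43.2%, below the median of 50.6% over expressed genes, and their GC-corrected log2 ratios of -0.09, -0.10 and -0.23 were closer to 0 than the scaled values of -0.26, -0.27 and -0.39.

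The 3 ER chaperone genes above 0 were among the less abundant ones. The BiP co-chaperone Dnajb9 had 539 and 1260 reads, 1.21-fold higher (1.09 to 1.34). The secreted survival factor Manf had 409 and 980 reads, 1.24-fold higher (1.10 to 1.39). With the GC-corrected ratios both remained above 0, at 0.43 and 0.40. Creld2 (230 and 483 reads, 1.09-fold higher, 0.926 to 1.28) and Sdf2l1, a BiP partner (141 and 221 reads, 1.23-fold lower, 0.992 to 1.53), had intervals that include no difference. GC-corrected, Sdf2l1 was called lower, at -0.59. Exons of Manf overlap those of Dcaf1 and of an antisense RNA over 4.14% and 4.71% of their length. Such overlaps with a gene on the opposite strand were larger for Hspa1a (19.0%), Hsp90b1 (10.3%), Eif2ak3 (8.05%) and Dnaja1 (7.05%). How far they bear on the counts was not tested.

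Genes of ER-associated degradation, which returns misfolded proteins to the cytosol for the proteasome, were nearly even. Edem1, a mannosidase-like factor that selects glycoproteins, was 1.18-fold lower (3207 and 5249 reads, 1.13 to 1.23). Herpud1 (1074 and 1943 reads) and the adaptor Sel1l (1294 and 2399 reads) were within counting error, at 1.07-fold and 1.04-fold lower. Syvn1, whose product HRD1 works with Sel1l, was 1.16-fold higher (1116 and 2496 reads, 1.08 to 1.24), a difference that GC correction took to -0.01.

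The other genes of the ER pathways leaned the same way as the chaperones. Of 34 further ER folding and translocation genes 32 were expressed, 26 of them below 0 and 6 above, with a median of -0.21 (-0.11 GC-corrected). Called higher were 3, Sec61b of the translocation channel (171 and 540 reads, 1.63-fold), the prolyl isomerase gene Fkbp2 (77 and 237, 1.59-fold) and Spcs1 of the signal peptidase (267 and 794, 1.54-fold). Called lower were 2, Ssr2 of the translocon-associated complex (769 and 938 reads, 1.59-fold) and the prolyl isomerase gene Ppib (255 and 327, 1.51-fold). Spcs1 and Ssr2 were called again when GC-corrected, while Sec61b, Fkbp2 and Ppib were not. Sec61g (47 and 127 reads) was called higher only when GC-corrected, at 0.64. None of 18 further expressed ER-associated degradation genes was called, with a median of -0.07.

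Summed over its genes, the ER group took 0.577% of WT gene reads (0.573 to 0.582, Clopper-Pearson) and 0.486% of KO gene reads (0.484 to 0.489). On the TMM-scaled scale this is 5620 and 4995 CPM, 1.13-fold lower. The heat shock group took 1.02% (1.01 to 1.03) and 0.757% (0.753 to 0.760), or 9929 and 7770 CPM, 1.28-fold lower. Most of that sum is 2 genes, Hspa8 and Hsp90ab1, and without them the heat shock sum was 2715 and 2263 CPM, 1.2-fold lower. The median log2 ratio was -0.12 for the 24 ER genes and -0.24 for the 16 heat shock genes (-0.10 and -0.15 GC-corrected). The difference between the groups was not tested.

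Of the heat shock factors, Hsf1, the main activator, was 1.25-fold higher in the KO library (937 and 2271 reads, 1.16 to 1.35). With GC content of 57.3%, its GC-corrected log2 ratio was 0.06 against 0.33 as scaled. Hsf2 was low and even (163 and 313 reads, 1.01-fold lower, 0.828 to 1.22).

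The constitutive chaperones of the cytosol were lower. The cognate HSP70 gene Hspa8, which folds new proteins in unstressed cells, had 47555 reads in WT and 74782 in KO, 923 and 751 RPKM. It was 1.23-fold lower (1.22 to 1.24). Hsp90ab1, the constitutive HSP90, had 38853 and 52769 reads (1082 and 760 RPKM) and was 1.42-fold lower (1.41 to 1.44). Hsp90aa1, the inducible HSP90, was lower to a like degree, 1.38-fold (7978 and 11144 reads, 1.34 to 1.42). The ratio of Hsp90aa1 to Hsp90ab1 reads was 0.205 and 0.211, a quotient of 1.03 whose interval includes 1 (0.996 to 1.06). The log2 ratios of Hsp90aa1 and Hsp90ab1 were -0.36 and -0.48 when GC-corrected. Per length, Hspa8 stood below Hsp90ab1 in WT and level with it in KO, with the limit on Hspa8 counts given further on.

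Their partners were also lower. The nucleotide exchange factors Hspa4 and Hsph1, of the HSP110 family, were 1.32-fold and 1.19-fold lower (4203 and 6167 reads, and 2244 and 3637). The J-domain gene Dnaja1 was 1.22-fold lower (4205 and 6660 reads). Cct2, a subunit of the chaperonin TRiC that folds actin and tubulin, was 1.16-fold lower (4416 and 7349 reads, 1.12 to 1.21). All 8 TRiC subunits, Cct2 included, had log2 ratios below 0, from -0.30 (Tcp1) to -0.07 (Cct6a and Cct8), with none called, and 6 of 8 were below 0 when GC-corrected.

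The HSP70 genes Hspa1a and Hspa1b and the J-domain gene Dnajb1, which heat induces, were slightly higher as scaled, with none called. Inducible genes had no common direction: Hsp90aa1 was 1.38-fold lower and the Hsf1 target Bag3 2.39-fold lower. Hspa1b had 329 and 780 reads, 27.5 and 33.7 CPM, 1.23-fold higher (1.08 to 1.40). Its near-identical copy Hspa1a had 171 and 401 reads, 1.21-fold higher (1.01 to 1.46). Both lie in tandem on chromosome 17 at high GC content, and GC-corrected they were at 0.03 and -0.03. Of the 50-base words in their transcripts 62.3% of Hspa1b and 60.3% of Hspa1a also occur in another gene, nearly always in each other, and reads aligned to several places were not counted to any gene, so their levels are uncertain. Dnajb1, the main inducible J-domain partner of HSP70, was 1.16-fold higher (1629 and 3665 reads, 1.10 to 1.23), and 0.23 GC-corrected on the log2 scale. Relative to Dnaja1, Dnajb1 went from 0.387 to 0.550 reads, 1.42-fold (1.32 to 1.52), and relative to Hspa8, Hspa1b went 1.51-fold (1.32 to 1.72). Such quotients are not GC-corrected, and GC content was 58.1% for Hspa1b and 50.1% for Hspa8. The GC-corrected log2 ratio was -0.20 for Dnaja1 and -0.24 for Hspa8, beside 0.23 for Dnajb1 and 0.03 for Hspa1b.

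Bag3 was the gene of the 40 with the lowest ratio. It encodes a co-chaperone that hands HSP70 clients to autophagy and is a known target of Hsf1. It lies at chr7:128523616-128546981 on the plus strand of GRCm38 (ENSMUSG00000030847.8) and had 172 reads in WT and 139 in KO, although the KO library held more reads in all. That is 14.4 and 6.00 CPM, 2.39-fold lower (1.90 to 3.01), rank 146 from the bottom of 10899 expressed genes. GC content of 56.1% goes with higher ratios elsewhere, and the GC-corrected log2 ratio was -1.40 against -1.25 as scaled. Relative to Hsf1 reads in the same library, Bag3 was 3.0-fold lower (2.37 to 3.80). Relative to Hspa8 reads it was 1.95-fold lower (1.56 to 2.43). These pairs, too, were chosen after the values were seen.

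Of 38 further cytosolic chaperone and co-chaperone genes 35 were expressed, with 3 called lower, none called higher, 32 between and a median of -0.08. GC-corrected, 2 were called higher, Hspb11 (0.66) and the prefoldin subunit gene Pfdn4 (0.64), and 3 lower, with a median of -0.12. The 3 were the J-domain gene Dnaja4 (303 and 293 reads, 2.0-fold lower, 1.70 to 2.36), the prefoldin subunit gene Pfdn5 (816 and 905, 1.74-fold lower, 1.58 to 1.92) and the HSP90 partner Chordc1 (1732 and 2219, 1.51-fold lower, 1.42 to 1.61). The 3 lower when GC-corrected were Dnaja4, Pfdn5 and the HSP70 co-chaperone gene Bag5 (-0.81), and Chordc1 was not called (-0.44). The small heat shock protein genes Hspb1, Hspb8 and Cryab, which are strongly induced by heat in many cells, had 3 reads or fewer in each library.

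**Figure D3:**
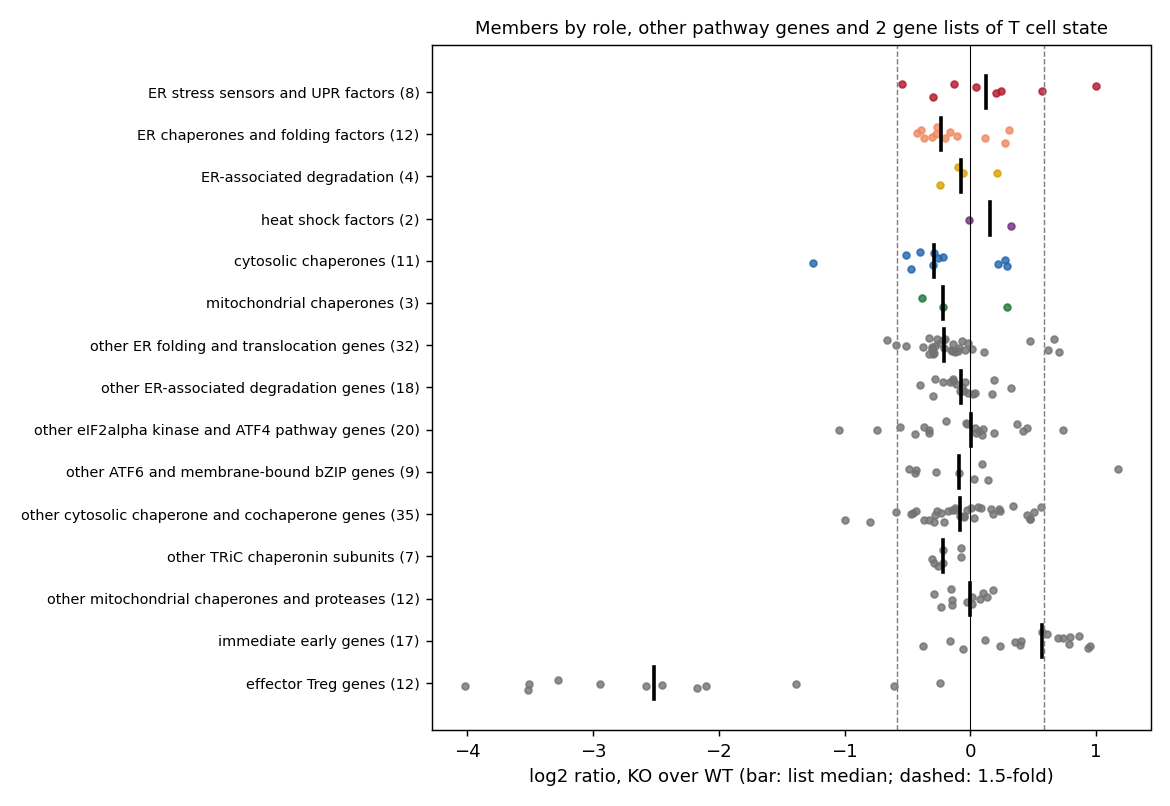
Log2 ratios of KO over WT of the expressed genes of each list (1 point per gene, number of genes in brackets, black bar for the median), with the 40 genes coloured by role, other pathway genes in grey and 2 lists of T cell state at the bottom. The TRiC subunits all lie left of 0 and most immediate early genes right of it.

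The mitochondrial chaperonin pair had ratios on opposite sides of 0. Hspd1 and Hspe1 encode the chaperonin HSP60 and its lid HSP10, which work as 1 machine and are transcribed in opposite directions from a shared promoter on chromosome 1. Hspd1 had 2762 reads in WT and 4091 in KO, 1.31-fold lower (1.24 to 1.37). Hspe1 had 406 and 959, 1.22-fold higher (1.09 to 1.38). The ratio of Hspe1 to Hspd1 reads thus went from 0.147 to 0.234, 1.59-fold (1.41 to 1.81), with no scaling involved. GC content of the pair was alike, 48.6% for Hspe1 and 50.4% for Hspd1, and the GC-corrected log2 ratios were 0.37 and -0.31.

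In the 215 bases between the Hspe1 start and the Hspd1 start at chr1:55087932 lie 2 overlapping heat shock elements, the site of Hsf1. Hspd1 has another RefSeq start, at chr1:55088243, whose window holds no such element. The element was searched on both strands as GAA, TTC and GAA, or TTC, GAA and TTC, with 2 bases of any kind between the units. Hspd1 and Hspe1 were the 2 of 33 genes with it in these windows, against 0.466% of all promoters. Hsf1, Hspa8, Hsp90aa1, Hsp90ab1, Hspa9, Atf6 and Manf had no matched promoter and were not searched for any element. The stretch is shown in the direction of Hspe1, with both elements in capitals, at chr1:55088053-55088082, 89 to 72 bases before the start of Hspe1.

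Hspe1 and Hspd1: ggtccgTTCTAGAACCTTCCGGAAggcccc

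Both genes have processed copies elsewhere in the genome. Of the 50-base words of Hspd1 transcripts 39.7% recur in other genes, 38% in the pseudogene Hspd1-ps3, and of Hspe1 18.4% recur. Their first exons overlap by 112 bases on opposite strands, 4.24% of Hspd1 and 7.60% of Hspe1. How much these shares bear on the opposite ratios was not tested. The same measure was 47.5% for Hsp90aa1, 38.6% for Hspa8 and 11.9% for Dnaja1, so that the levels of these genes are less certain than their counting intervals. It was 5.50% or less for each of the remaining 33 genes. Hspa9, the HSP70 of the mitochondrial matrix, was 1.16-fold lower (2908 and 4846 reads, 1.11 to 1.22), and -0.04 when GC-corrected. None of 12 further mitochondrial chaperones and proteases was called, with a median of -0.01.

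**Figure D4:**
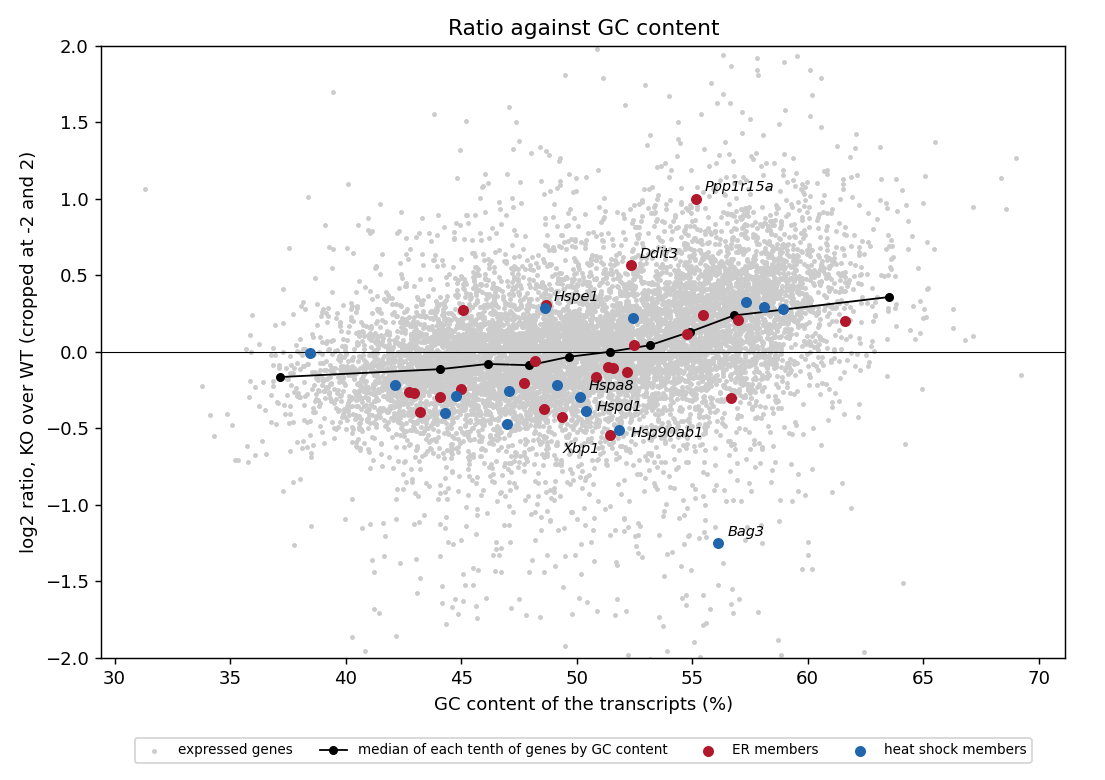
Log2 ratio of KO over WT against the GC content of transcripts (percent) for expressed genes (grey), the ER genes (red) and the heat shock genes (blue), with the median of each of 10 equal bins by GC content (black line), which goes from -0.16 to 0.36. Ppp1r15a lies above the line and Bag3 below it, while Hspe1 and Hspd1 differ in ratio at like GC content.

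Markers of other cells were present in both libraries, and a few macrophage genes were not low. Csf1r, the receptor of a macrophage growth factor, had 3192 and 5440 reads (266 and 235 CPM), more than Xbp1, and the lysozyme gene Lyz2 had 1474 and 2924 (123 and 126 CPM). Xbp1, Edem1 and many ER chaperones are high in plasma cells. Of the defining plasma cell markers, the gene of the immunoglobulin joining chain (Igj) had 59 and 75 reads, Sdc1 7 and 9, and Tnfrsf17 was listed at 0 in both. The list of 8 plasma cell markers summed to 185 and 139 CPM, most of it Irf4, Txndc5 and Prdm1, which Treg cells also express, and 2 of its 5 expressed genes were called lower. The 8 B cell markers summed to 160 and 128 CPM with 3 called lower, the 8 monocyte and macrophage markers to 506 and 460 with none called, and the 7 dendritic cell markers to 23.0 and 28.1 with none of 4 expressed ones called. The 7 CD8 T cell and NK cell markers summed to 52.4 and 54.4 CPM, most of it Cd8b1. Of 5 expressed ones Klrb1c (30 and 18 reads, 3.22-fold) and Nkg7 (142 and 113, 2.43-fold) were called lower. Eomes (43 and 145 reads, 1.74-fold) was called higher. The 6 erythroid markers in the table summed to 14.3 and 5.57 CPM, and both expressed ones, Alas2 (115 and 93 reads) and Slc4a1 (50 and 30), were called lower. The globin genes Hba-a1, Hbb-bs and Hbb-bt were listed at 0 in both libraries, so this sum holds no globin reads. In the same libraries 11 of 12 effector Treg genes were called lower, with a median log2 ratio of -2.52, and 10 were called lower when GC-corrected. Among all expressed genes 5.51% were called lower and 7.43% higher, and 5.64% lower when GC-corrected. The part of the other cells, or of the effector subset, in the ratios of the 40 genes was not tested.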

How the data were processed

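The authors deposited 1 table of raw read counts per gene symbol for both libraries. HTSeq, TopHat2 2.0.3 and build mm10 are named, per the submitters' processing notes. Not given in the sources used here were annotation, strand setting and read length. The 5 counter categories for reads outside genes were left out: genes held 76.6% of entries in each library, and alignments to several places 15.6% (WT) and 15.0% (KO). No molecular identifiers are mentioned in the labels, so intervals cover counting error only and may be too narrow even for that.

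Counts were scaled with TMM factors (1.03 for WT, 0.974 for KO; edgeR 4.0.16, R 4.3.3). Folds and exact conditional binomial (Clopper-Pearson) intervals use raw counts and no pseudocount; log2 ratios, medians and calls use a pseudocount of 1. No test was run on these single libraries. GC content and exon length came from GENCODE M21 (GRCm38, the assembly of mm10), and the GC correction subtracts a cubic spline fit on both over expressed genes. Shared 50-base words were counted over GENCODE transcripts. Promoters came from RefSeq GRCm38.p6. Python 3.11.15, pandas 2.3.3, numpy 2.4.6, scipy 1.17.1, matplotlib 3.10.9 and DESeq2 1.42.0 (size factors only) were used. The interval and ratio steps were checked on simulated Poisson counts with known library sizes. Such a check covers the calculation only, not the TMM scaling, the GC correction or the spread between mice.

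All 40 genes are named. Of other pathway genes, those past 1.5-fold with a mean of at least 100 reads are named, up to 4 a list, with a few others picked after their values were seen. Members and lists were chosen with earlier results of these data known. The targeted gene is not reported here.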

Additional observations from a re-analysis of the deposited data

How the results depend on the processing

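With 1 library per group, no result has a replicate check and no library could be left out. No paired analysis was possible because each group holds a single library. The count of genes called higher was 1 under each of the 6 alternatives run (DESeq2 size factors, total gene counts, a pseudocount of 5, no minimum count, a mean of at least 100 counts, and removal of the trend on GC content and length), and the median of all 40 genes was below 0 in each. The count called lower was 3 with total gene counts, which took Xbp1 to -0.62 and Hsp90ab1 to -0.59 on the log2 scale, and 2 with the GC trend removed, which took Sdf2l1 to -0.59, against 1 otherwise. The median of the heat shock genes was -0.31 with total gene counts and -0.15 with the GC trend removed, against -0.24. The sign of single genes was the same for 40 of 40 genes under the 4 other settings, for 39 with total gene counts (Eif2ak3 at -0.03) and for 36 with the GC trend removed, the exceptions being Atf6b (-0.21), Syvn1 (-0.01), Hsf2 (0.14) and Hspa1a (-0.03). The 2 settings that change only the minimum count could not alter any value of the 40 genes, which all had a mean of at least 100 counts. For these genes they are no check. Over all genes, 810 were called higher and 600 lower, 57.4% of calls higher. With total gene counts these were 623 and 758 (45.1%), with the GC trend removed 502 and 590 (46.0%), with no minimum count 2617 and 1867, and with a mean of at least 100 counts 509 and 309. Depth limits Ddit3, Sdf2l1, Bag3, Hspa1a, Ern1 and Hsf2 most, which had under 200 reads in the WT library.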
